A study of Mus musculus with 6 samples.

Results

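The ABC transporters are membrane pumps that share an ATP-binding cassette, and 45 of their genes were read in endothelial cells of the lymph node (LN), of 18193 mouse genes with a probe set of their own. A member is a gene with a symbol of the form Abca to Abcg and a number, measured by a probe set that the platform table assigns to this gene alone. The 45 members had 92 such probe sets among the 45037 that are not controls, and each gene was read at the probe set that was brightest on average over the 6 arrays. The symbol alone decided which genes are members, but the family was chosen with earlier results of these data known. The probe set of each gene was picked by its measured mean over both groups.

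Groups were LN endothelial cells of 6-week-old C57BL/6 mice, with skin-draining and mesenteric LN pooled, leukocytes depleted by CD45 beads and the rest sorted by gp38 and CD31. The 3 double-positive samples carry both proteins, and the 3 CD31+ samples carry CD31 without gp38. All mice were of the same strain and age and no treatment is given, and the labels do not give the number of mice behind a sample. From each sample 20 ng of RNA was amplified in 2 rounds and hybridized to 1 array. The titles also call the CD31+ arrays LEC and the double-positive arrays BEC, which is the reverse of the gates of the study, where lymphatic endothelial cells (LEC) carry gp38 and blood endothelial cells (BEC) do not. Arrays are named here by the gate word, and by the other word every difference below would only change its sign.

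Most markers followed the gates. Averaged over 7 lymphatic endothelial genes, the log2 value was 7.92 to 8.50 on the double-positive arrays and 4.13 to 4.57 on the CD31+ arrays, and limma called 4 of the 7 higher and 0 lower. Prox1, the transcription factor of lymphatic identity, went against this, with 6.73, 6.56 and 9.20 on the double-positive arrays, against 7.32, 6.92 and 8.04 on the CD31+ arrays, and a difference of 0.07. Over 7 blood endothelial genes it was 4.84 to 5.36 on the double-positive arrays and 8.64 to 9.11 on the CD31+ arrays, with 6 of the 7 called lower and Cd36, at 2.30, going the other way. With the replicate block over all probe sets these 10 calls were lost (limma adjusted p of 0.0912 to 0.201), and with the filter and the block they held. Most of the 10, such as Itga9, Pdpn, Cd34, Cxcl12, Flt1 and Sox17, passed the filter only through the group where they are high. Their filtered calls are thus no separate support. High endothelial venule genes were at 5.92 to 6.18 on the double-positive arrays and 6.35 to 7.61 on the CD31+ arrays. Of the 5, 0 were called over all probe sets, and 2 of the 3 that passed a filter on dim ones were called lower. Glycam1 of this list was bright in both groups, and the groups overlapped. It had 12.79, 13.61 and 13.14 on the double-positive arrays, against 12.11, 14.91 and 14.93 on the CD31+ arrays. Selp was also bright in both, at 7.22 to 7.95 on the double-positive arrays and 8.45 to 9.48 on the CD31+ arrays. The lymphocyte list was near the floor in both groups, at 2.46 on the double-positive arrays and 2.46 to 2.55 on the CD31+ arrays, with Cd3e, Cd3g and Cd79a at the floor. The myeloid list was at 2.96 to 3.00 and 2.72 to 3.15 in the same order, with Cd68 at the floor and 0 of 7 called. Its members did not move together. Cd14 had 4.90, 5.20 and 4.91 on the double-positive arrays, against 3.31, 3.32 and 2.70 on the CD31+ arrays. Ptprc went the other way, with a difference of -1.05, and the groups overlapped for neither gene. Reticular fibroblast genes were at 3.17 to 3.69 on the double-positive arrays, against 4.23 to 5.45 on the CD31+ arrays. Of the 7, 0 were called over all probe sets, and 3 of the 4 that passed the filter were called lower. Pericyte genes were at 3.87 to 4.03 and 3.66 to 4.51, with 0 of 7 called over all probe sets. Of the 3 that passed the filter 0 were called higher and 1 lower, Acta2 at -2.34 (limma adjusted p = 0.0109). Ackr1, Col1a2, Col3a1, Pdgfrb and Acta2 passed the filter only through the CD31+ arrays, where they are high. Their filtered calls are no separate support either. Rgs5 and Kcnj8, pericyte genes that also passed the filter, went the other way, with differences of 0.33 and 1.38. Kcnj8 was called higher with the filter and the replicate block (limma adjusted p = 0.0082), where 46.4% of genes were. Of all genes past the filter 4.11% were called lower. In bulk samples like these, fewer cells of a type and less RNA per cell cannot be told apart. The double-positive arrays were also brighter. Of their probe sets 13.8% to 14.7% reached a log2 value of 5, against 10.7% to 12.6% on the CD31+ arrays, and the median difference of the bright probe sets was 0.75. Centring the arrays on those probe sets lowers every difference by 0.68, and the part of this brightness in the differences below was not tested. The 3' probe set of Actb exceeded the 5' one, a sign of RNA quality and amplification, by 7.58 to 7.83 on the double-positive arrays and 6.07 to 7.38 on the CD31+ arrays, with CD31+ replicate 3 lowest, and its part was not tested either.

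ABC transporters bind ATP on cassettes at the inner face of a membrane and use its hydrolysis to move a substrate to the other side. Subfamily A and part of subfamily G move lipids, members of B, C and G expel drugs, conjugates and signalling molecules, D works in the peroxisome and the lysosome, and E and F lack the membrane part and act on ribosomes. In blood capillaries of the brain the drug pumps face the lumen and return foreign compounds to the blood, and in endothelium and macrophages the lipid exporters hand cholesterol to lipoproteins.

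The genes with the widest differences were Abcb1a and Abca13, and their promoters are shown with that of Abcb1b, which lies next to Abcb1a with no gene between them in the RefSeq table. The sequences are the 250 bases before the annotated start from RefSeq (GRCm38.p6, plus strand for all 3 genes), at chr5:8566841-8567090 for Abcb1a, chr5:8797897-8798146 for Abcb1b and chr11:9191692-9191941 for Abca13. Capitals mark matches on either strand to a TATA box with the letters TATAAA, to the letters CCAAT of the box of that name, or to a GC box with the letters GGGCGG. The matches do not overlap each other here.
Abcb1a: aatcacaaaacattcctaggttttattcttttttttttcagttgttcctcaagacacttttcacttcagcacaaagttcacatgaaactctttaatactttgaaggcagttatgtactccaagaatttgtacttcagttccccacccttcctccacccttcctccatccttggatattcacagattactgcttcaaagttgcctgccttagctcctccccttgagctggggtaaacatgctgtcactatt
Abcb1b: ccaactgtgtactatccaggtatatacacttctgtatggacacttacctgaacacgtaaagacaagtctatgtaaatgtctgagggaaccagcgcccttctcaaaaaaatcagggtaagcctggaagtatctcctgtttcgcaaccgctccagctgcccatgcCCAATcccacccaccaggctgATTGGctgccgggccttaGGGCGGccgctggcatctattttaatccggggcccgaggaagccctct
Abca13: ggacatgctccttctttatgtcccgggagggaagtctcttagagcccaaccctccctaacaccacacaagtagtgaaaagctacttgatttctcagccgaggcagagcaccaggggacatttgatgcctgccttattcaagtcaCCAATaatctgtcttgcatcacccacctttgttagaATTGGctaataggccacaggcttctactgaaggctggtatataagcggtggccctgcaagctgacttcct
The window of Abcb1b holds 2 CCAAT boxes and 1 GC box, that of Abca13 holds 2 CCAAT boxes, and that of Abcb1a holds no match to these letters. Their GC content was 40.4% for Abcb1a, 52.8% for Abcb1b and 49.6% for Abca13. Of 32851 RefSeq promoters of this length, 12.4% hold the TATA box letters, 33.8% those of the CCAAT box and 32.7% those of the GC box. A promoter entry was found for 35 of the 45 members.

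Few ABC transporter genes were bright in these cells. The values have a floor at a log2 value of 2.39, and 13 of the 45 members lay within 0.1 of it on every array, so that a change there would go unseen. Another 24 were above the floor but did not reach a log2 value of 5 on 3 arrays. The 8 that did were Abca1, Abca3, Abca13, Abcb1a, Abcc1, Abcd3, Abcf1 and Abcg2, and 6 of these reached it on all 6 arrays. Abca13 passed this filter only through the double-positive arrays and Abcb1a only through the CD31+ arrays, so the share of calls among the 8 says nothing of the family. In all 17.8% of the members passed the filter and 23.1% of all genes did. Some of the 24 members between floor and filter held nearly the same value on every array, such as Abcf2 at 2.50 to 2.52 and Abcb6 at 2.50 to 2.59. A change could go unseen there too.

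Between the groups, 1 member was called higher in the double-positive arrays (Abca13) and 1 lower (Abcb1a) at 5% FDR in limma, which is 2.22% of the members in each direction. Over all genes, 0.879% were called higher and 0.176% lower. Before adjustment, 7 members had a p under 0.05 as higher and 4 as lower, against 12.5% and 2.12% of all genes. The groups did not overlap for 7 members that were higher and 5 that were lower, against 16.9% and 3.42% of all genes. With the filter on dim probe sets 4 of the 8 members were called higher and 2 lower, against 33.2% and 4.11% of the genes that passed it, and the same 6 members were called with the filter and the replicate number as a block in the fit, where 46.4% and 4.99% of genes were. With the filter and centred arrays, 1 of the 8 was called higher and 2 lower, against 12.6% and 9.63%. The median difference was 0 over the 45 members and 9.76e-05 over all genes. In 28 members the difference was smaller than 0.3 in size, and in 9 it was at least 1. With 3 arrays a side the smallest two-sided p of an exact permutation test is 0.1.

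**Figure D1:**
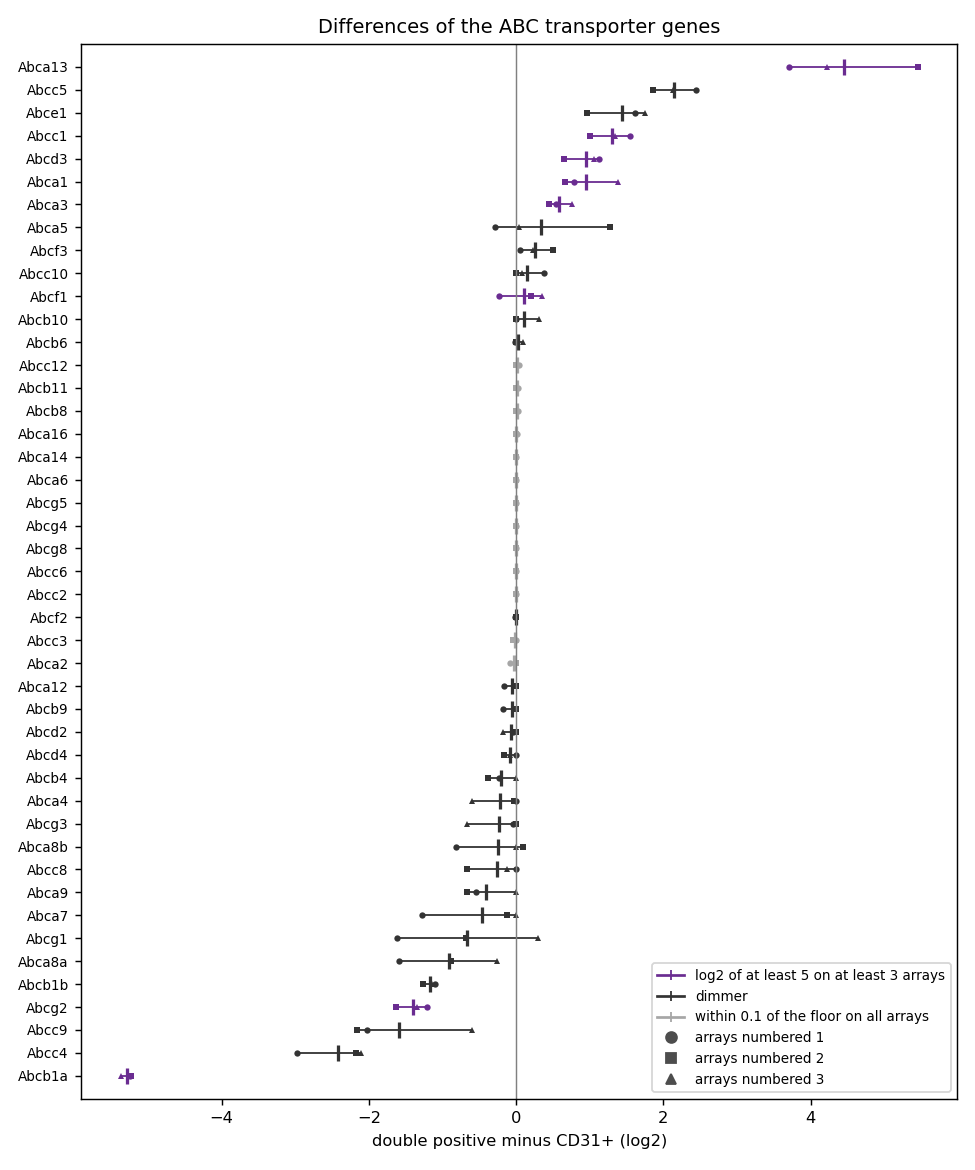
Differences of the 45 ABC transporter genes, as double-positive minus CD31+ log2 values. Vertical ticks are the mean differences, small points are the differences between arrays of the same replicate number, horizontal lines join their extremes, and purple marks the 8 genes with a log2 value of at least 5 on at least 3 arrays. Abcb1a and Abca13 stand at the ends, at -5.28 and 4.46, and the 13 genes at the floor lie close to 0.

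Among the pumps for drugs and organic anions, Abcb1a was lower in the double-positive arrays by a factor of 38.8. It encodes a P-glycoprotein, the pump that keeps many drugs out of the mouse brain. Its log2 values were 3.95, 3.89 and 3.19 on the double-positive arrays, against 9.19, 9.12 and 8.56 on the CD31+ arrays. All 3 CD31+ arrays were bright and all 3 double-positive arrays dim, with no value between 3.95 and 8.56. The difference was -5.28 (standard error, SE, of 0.302, limma adjusted p = 0.0217), the third lowest of the 18193 genes. The other probe set of the gene had 3.34, 2.54 and 2.67 on the double-positive arrays, against 8.51, 8.44 and 7.52 on the CD31+ arrays, and passed as well, at -5.31 (limma adjusted p = 0.0321). With the replicate block over all probe sets the adjusted p was 0.0599, and leaving out any 1 array gave 0.0563 to 0.0919.

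Abcb1b, the neighbouring gene for a second P-glycoprotein, was not called. Its log2 values were 4.52, 4.52 and 3.62 on the double-positive arrays, against 5.63, 5.78 and 4.77 on the CD31+ arrays. The groups did not overlap, and the difference of -1.17 (SE 0.416, limma adjusted p = 0.525) missed the threshold. Between arrays of the same number it was -1.11, -1.26 and -1.14, and the unadjusted p was 0.0439 without and 0.000507 with the replicate block (limma adjusted p = 0.151). Another probe set of Abcb1b lay at about 2.61 on every array. Abcb4, the third gene of this row on chromosome 5 and a phospholipid pump of the bile canaliculus, had values of 2.47 on the double-positive arrays and 2.47 to 2.85 on the CD31+ arrays. Abcb1a and Abcb1b are alike in sequence, and the binding of probes to the other gene was not tested.

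Abcg2, the breast cancer resistance protein, was bright on all 6 arrays and called as lower once dim probe sets were left out. It had log2 values of 7.91, 8.40 and 7.79 on the double-positive arrays, against 9.13, 10.04 and 9.14 on the CD31+ arrays. Each double-positive array was below each CD31+ array, yet the difference of -1.40 (SE 0.339) missed the threshold over all probe sets (limma adjusted p = 0.272). It passed with the filter (limma adjusted p = 0.0157) and also with the filter and centred arrays, at -2.08 (limma adjusted p = 0.00094).

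Of the multidrug resistance proteins of subfamily C, Abcc4 had a negative difference like Abcb1a, and those of Abcc1 and Abcc5 were positive. Abcc4, an exporter of cyclic nucleotides and prostaglandins, had 2.92, 3.40 and 2.84 on the double-positive arrays, against 5.90, 5.57 and 4.95 on the CD31+ arrays. The groups lay apart, and the difference of -2.42 (SE 0.316) had an adjusted p of 0.0834 from limma, which became 0.0422 when the probe sets of each gene were averaged first and fewer tests were made. Abcc4 has 1 probe set, which is below the filter.

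Abcc5, an exporter of organic anions such as cyclic GMP, had 5.49, 5.29 and 4.79 on the double-positive arrays, against 3.05, 3.43 and 2.65 on the CD31+ arrays. Its difference of 2.15 (SE 0.295, limma adjusted p = 0.0925) was the second highest of the members. This is the brightest of 10 probe sets, and the other 9 differed by -0.07 to 0.64. Abcc1, which exports leukotriene C4 and glutathione conjugates, was bright in both groups, at 7.90, 7.78 and 7.53 on the double-positive arrays and 6.35, 6.78 and 6.18 on the CD31+ arrays. The difference of 1.30 (SE 0.201) was called with the filter (limma adjusted p = 0.0104) but neither over all probe sets (limma adjusted p = 0.118) nor with the filter and centred arrays, at 0.62 (limma adjusted p = 0.117). The other probe set of Abcc1 was at the floor on every array.

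Abcc2, Abcc3 and Abcc12, of which Abcc2 and Abcc3 serve the liver and gut, were at the floor on every array. Abcc10 reached 3.58 on double-positive replicate 1 and 3.20 on CD31+ replicate 1 and was at 2.42 to 2.50 on the others. Of the 10 measured pumps of this kind, limma thus called 1, as lower, while 2 as higher and 4 as lower had a p under 0.05 before adjustment. Their median difference was -0.01.

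**Figure D2:**
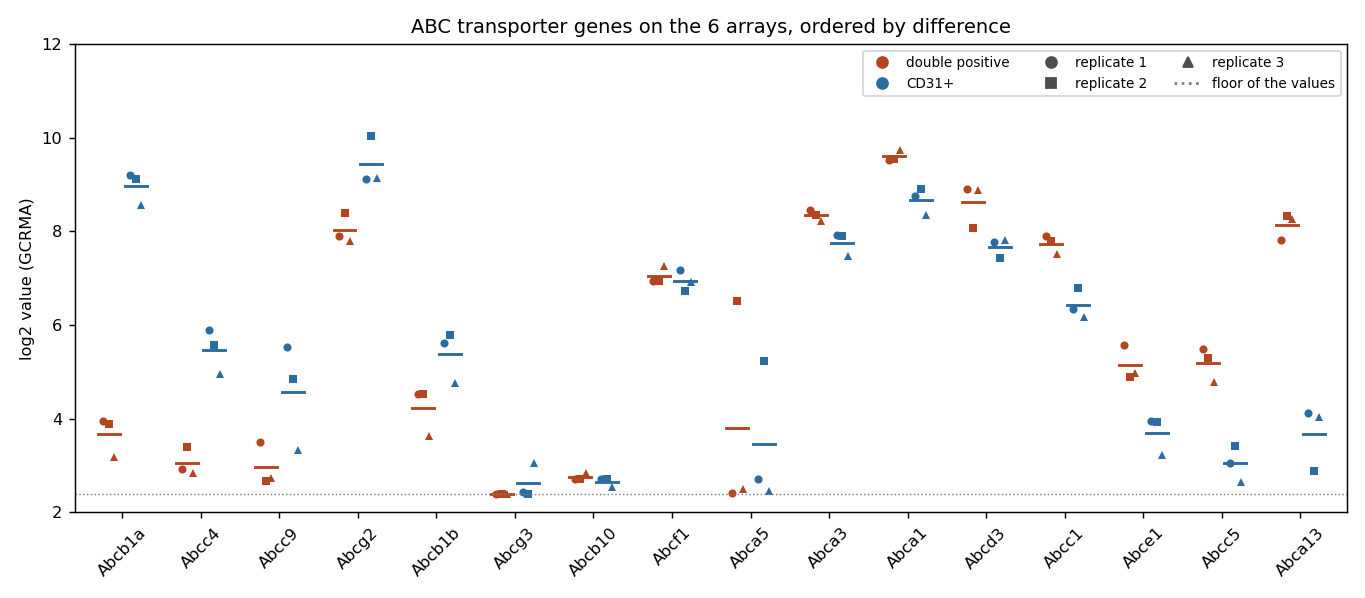
Log2 values (GCRMA) of 16 ABC transporter genes on each of the 6 arrays, ordered from the lowest to the highest difference. Points are arrays, with a shape for each replicate number, bars are group means, orange is double positive and blue is CD31+. Abcb1a has 3.19 to 3.95 on the double-positive arrays and 8.56 to 9.19 on the CD31+ arrays, Abca13 has 7.82 to 8.34 and 2.88 to 4.12, and Abca5 is bright on both arrays numbered 2.

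The cholesterol exporter Abca1 was bright on every array. It loads cholesterol and phospholipid onto apolipoprotein A-I. Its values were 9.53, 9.55 and 9.74 on the double-positive arrays, against 8.75, 8.89 and 8.35 on the CD31+ arrays. All 3 double-positive arrays were above all CD31+ arrays. The difference of 0.94 (SE 0.168, limma adjusted p = 0.153) passed once dim probe sets were filtered out (limma adjusted p = 0.0299), and with centred arrays it was 0.27 and was not called (limma adjusted p = 0.508). Its dimmer probe sets differed by -0.11 and -0.17. With probe sets averaged per gene the difference was 0.22 (limma adjusted p = 0.399).

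The other exporters of this kind were dim. Abcg1, which passes cholesterol to high-density lipoprotein, had 3.87, 3.75 and 4.46 on the double-positive arrays, against 5.48, 4.43 and 4.17 on the CD31+ arrays. The groups overlapped at this probe set, and both probe sets of Abcg1 differed by -0.67. The dimmer one had 2.88, 2.93 and 2.89 on the double-positive arrays, against 3.80, 3.24 and 3.66 on the CD31+ arrays. Its groups did not overlap (limma adjusted p = 0.272). Abcg1 is outside the rule for genes given in full and was chosen after its values were seen. Abca7, a phospholipid transporter of phagocytes, had 2.95 to 3.00 on the double-positive arrays and 3.00 to 4.28 on the CD31+ arrays. Abcg4 and Abcb11, the bile salt pump, were at the floor, as were Abcg5 and Abcg8, which together form the sterol pump of liver and intestine and are neighbours in the genome. Of the 8 measured exporters of cholesterol and phospholipid, limma called 0 in either direction (1 as higher had a p under 0.05 before adjustment), and the median difference was 0.

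In the rest of subfamily A, Abca13 was 22.0-fold higher in the double-positive arrays. It encodes one of the longest proteins of the family, and little is known of its substrate. The log2 values were 7.82, 8.34 and 8.26 on the double-positive arrays, against 4.12, 2.88 and 4.04 on the CD31+ arrays. No array of one group came near those of the other. The difference was 4.46 (SE 0.412, limma adjusted p = 0.0474), which ranked 27 from the top over all genes. The other probe set of Abca13 had 5.64, 4.77 and 6.32 on the double-positive arrays, against 4.15, 3.76 and 2.39 on the CD31+ arrays. It differed by 2.14 and did not pass (limma adjusted p = 0.426). With the replicate block the limma adjusted p at the brighter probe set was 0.263. Of the fits with 1 array left out only that without CD31+ replicate 2 called the gene. That array had the lowest value at this probe set but was not dim over all probe sets.

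Abca3, which fills the surfactant granules of the lung, was bright in both groups. It had 8.45, 8.34 and 8.22 on the double-positive arrays, against 7.91, 7.90 and 7.47 on the CD31+ arrays. Although the groups lay apart, the difference of 0.58 (SE 0.153, limma adjusted p = 0.319) was smaller than the shift of the scale and was -0.10 with centred arrays. The dimmer probe sets of Abca3 differed by -0.08 and 0. Abca2 was at the floor. Abca4, a retinoid transporter of the eye, reached at most 2.62 on the double-positive arrays and 3.22 on the CD31+ arrays, and Abca12, a lipid transporter of the skin, reached 2.56 on 1 CD31+ array. Of these 5 genes limma called 1 higher and 0 lower, with a median difference of -0.03.

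The row of neighbours Abca8b, Abca8a, Abca9, Abca6 and Abca5 on chromosome 11, with no other gene between them in the RefSeq table, gave 0 calls in limma and 0 with a p under 0.05 before adjustment. Abca5 had 2.42, 6.51 and 2.49 on the double-positive arrays, against 2.71, 5.24 and 2.45 on the CD31+ arrays. It was thus bright on both arrays numbered 2 and near the floor on the others, and its difference of 0.34 (SE 1.55) is smaller than its spread. A control probe set for B1 repeats showed the same arrays apart, at 12.84 on double-positive and 12.28 on CD31+ replicate 2, against 7.47 to 8.11 on the others, and its part in the values of Abca5 was not tested. Abca8a, chosen after its values were seen, had 2.50, 2.39 and 2.42 on the double-positive arrays, against 4.09, 3.28 and 2.67 on the CD31+ arrays. Its groups did not overlap, with a difference of -0.91 (limma adjusted p = 0.659). Abca8b and Abca9 differed by -0.24 and -0.40, and Abca6 was at the floor.

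Abcd3 passed the filter, as the 1 member of 4 among the transporters of peroxisomes and lysosomes. The protein carries branched-chain fatty acids and bile acid precursors into the peroxisome. It had 8.91, 8.08 and 8.88 on the double-positive arrays, against 7.78, 7.43 and 7.82 on the CD31+ arrays. The groups did not overlap, and both arrays numbered 2 were the lowest of their group. The difference of 0.95 (SE 0.287, limma adjusted p = 0.406) was called with the filter (limma adjusted p = 0.0482), but with the filter and centred arrays it was 0.27 and was not (limma adjusted p = 0.613). The other probe set of Abcd3 was at the floor on every array. Abcd2, a peroxisomal carrier of very long fatty acids, Abcd4, which takes part in cobalamin export from the lysosome, and Abcb9, a lysosomal peptide transporter, differed by -0.07, -0.08 and -0.06. Limma called 0 of the 4 over all probe sets, and Abcd3 alone had a p under 0.05 before adjustment.

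Mitochondrial members, Abcb6, Abcb8 and Abcb10, were close to the floor. Abcb10, which red cell precursors need for heme synthesis, was at 2.71, 2.71 and 2.85 on the double-positive arrays and 2.71, 2.71 and 2.54 on the CD31+ arrays. Its difference was 0.10 (limma adjusted p = 0.659). Abcb6 differed by 0.02, and Abcb8 was at the floor. Of the 3 limma called 0, and 0 had a p under 0.05 before adjustment.

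Among the soluble ATPases that act on ribosomes, Abce1, which splits ribosomes after termination, had 5.57, 4.89 and 4.98 on the double-positive arrays, against 3.96, 3.93 and 3.23 on the CD31+ arrays. All double-positive arrays were higher, with a difference of 1.44 (SE 0.307, limma adjusted p = 0.215). Its other probe sets differed by 0.69 and 0.26. Abcf1, which takes part in translation initiation, overlapped between the groups, at 6.94, 6.94 and 7.27 on the double-positive arrays and 7.17, 6.74 and 6.91 on the CD31+ arrays. The difference was 0.11, with a 95% confidence interval of -0.32 to 0.54, and it was -0.57 with centred arrays. Abcf3 differed by 0.26 and Abcf2 by 0.00. Of the 4 genes limma called 0, and 1 as higher had a p under 0.05 before adjustment.

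The sulfonylurea receptors Abcc8 and Abcc9 do not pump but gate potassium channels. Abcc9, the form of vessels and heart, had 3.51, 2.68 and 2.74 on the double-positive arrays, against 5.54, 4.84 and 3.34 on the CD31+ arrays. The CD31+ arrays were spread over more than 2 units and CD31+ replicate 3 lay below double-positive replicate 1, so that the groups overlapped. The difference of -1.60 (SE 0.672, limma adjusted p = 0.651) did not pass, and the 2 dimmer probe sets differed by -0.14 and -0.06. The reticular fibroblast list ran at 3.69, 3.39 and 3.17 on the double-positive arrays and 5.39, 5.45 and 4.23 on the CD31+ arrays, and the pericyte list at 4.03, 3.87 and 3.87 and at 4.14, 4.51 and 3.66, in replicate order. Their part in the values of Abcc9 was not tested. Abcc8, the form of the pancreatic beta cell, was at 2.47 to 2.48 on the double-positive arrays and 2.48 to 3.14 on the CD31+ arrays. Kcnj8, the pore that pairs with Abcc9, is also in the pericyte list. It had 6.81, 5.23 and 5.72 on the double-positive arrays, against 5.12, 4.87 and 3.63 on the CD31+ arrays. It passed the filter only through the double-positive arrays. Its difference of 1.38 was not called over all probe sets (limma adjusted p = 0.659) or with the filter (limma adjusted p = 0.060), and it was called as higher with the filter and the replicate block (limma adjusted p = 0.0082). Between arrays of the same number it was 1.70, 0.36 and 2.09. Kcnj11, the pore that pairs with Abcc8, differed by 0.07.

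Of the members with a little known or narrow role, Abca14, Abca16 and Abcc6, the last a liver protein, were at the floor. Abcg3, a rodent relative of Abcg2, was at 2.39 on the double-positive arrays and at 2.44, 2.39 and 3.06 on the CD31+ arrays. The difference was -0.24 (limma adjusted p = 0.659).

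For several members 1 array stood apart in its group. In the double-positive group the brightest array stood over 0.5 above the next for 5 members (Abca5, Abcc9, Abcc10, Abce1 and Abcg1), and in the CD31+ group for 11, of which 6 (Abca7, Abca8a, Abca8b, Abcc9, Abcc10 and Abcg1) were brightest on replicate 1.

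**Figure D3:**
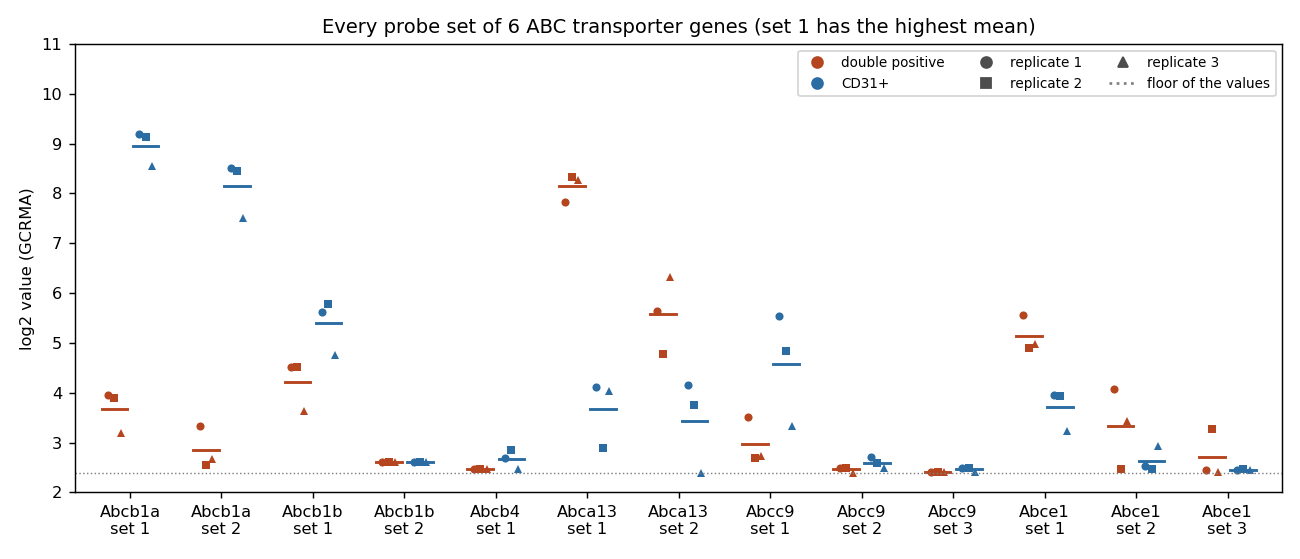
Log2 values (GCRMA) of every probe set of 6 ABC transporter genes on each of the 6 arrays, with set 1 the brightest of a gene. Points are arrays, bars are group means, orange is double positive, blue is CD31+, and the dotted line is the floor at 2.39. Both sets of Abcb1a differ by about the same amount, at -5.28 and -5.31, and those of Abca13 by 4.46 and 2.14.

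Genes that work with the transporters gave no call over all probe sets, and some passed with the filter. Of all genes past the filter 33.2% were called higher and 4.11% lower, and with the replicate block added 46.4% and 4.99%. Before adjustment 12.5% of all genes had a limma p under 0.05 as higher and 2.12% as lower. The counts below are small and are not read as results about the lists. Of the genes named below, Abhd2, Slco2b1, Pex3 and Glrx5 passed the filter only through the group where they are high. Their filtered calls are thus no separate support. Of 17 measured partners and regulators of sterol efflux, limma called 0 over all probe sets. Before adjustment 2 as higher and 2 as lower had a p under 0.05. The filter left 6 of the 17, with 3 called higher and 2 lower. Pltp, which transfers phospholipid between lipoproteins, had 7.00, 6.63 and 5.90 on the double-positive arrays, against 10.86, 12.19 and 10.90 on the CD31+ arrays. The difference was -4.80 (limma adjusted p = 0.0594). Scarb1, the receptor of high-density lipoprotein, had 8.27, 8.54 and 7.74 on the double-positive arrays, against 11.94, 13.35 and 11.39 on the CD31+ arrays. The difference was -4.05 (limma adjusted p = 0.109). Both were far apart between the groups and passed as lower with the filter, with and without centred arrays. Abhd2, a lipase, Mylip, which degrades lipoprotein receptors, and Npc2, which carries cholesterol in the lysosome, were higher by 1.18, 1.39 and 1.14 with the filter and were not called once the arrays were centred.

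Of 14 measured xenobiotic sensors and conjugating enzymes, 0 were called over all probe sets. Before adjustment 3 as higher had a p under 0.05. The filter left 7 of the 14, with 1 called higher. With the replicate block added to the filter Gstp1, a glutathione transferase, was called as well, at 1.21 (limma adjusted p = 0.0126, against 0.0768 without the block). The gene called with the filter alone was Cyp1b1, a cytochrome P450 that oxidizes foreign compounds and steroids, with 12.35, 11.64 and 12.02 on the double-positive arrays, against 8.31, 6.43 and 7.46 on the CD31+ arrays. Its difference was 4.61 (limma adjusted p = 0.0717), of the size of that of Abca13. Of 12 measured transporters known from barrier endothelium, 0 were called over all probe sets. Before adjustment 1 as lower had a p under 0.05. The filter left 4 of the 12, with 1 called higher and 1 lower. Slco2b1, an organic anion transporter, had 5.16, 4.46 and 4.82 on the double-positive arrays, against 7.39, 7.78 and 7.01 on the CD31+ arrays. The difference was -2.58 (limma adjusted p = 0.0628). Slc16a1, a monocarboxylate transporter, was higher by 1.24 with the filter and was not called with centred arrays.

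Of 8 measured genes of peroxisomal fatty acid oxidation, 0 were called over all probe sets (2 as higher had a p under 0.05 before adjustment). The filter left 4 of the 8. Pex3, which builds peroxisomes, and Scp2, a thiolase and lipid carrier, were higher with the filter, by 1.41 and 1.48, and with the replicate block added so was Hsd17b4, a peroxisomal oxidation enzyme, by 1.25 (limma adjusted p = 0.0193, against 0.0624 without the block). Of 13 measured genes of heme and iron-sulfur cluster synthesis, 0 were called over all probe sets (3 as higher had a p under 0.05 before adjustment). The filter left 5 of the 13. Glrx5 and Iscu, both of cluster assembly, were higher with the filter, by 1.59 and 1.40, and with the replicate block added so was Urod, an enzyme of heme synthesis, by 1.05 (limma adjusted p = 0.0133, against 0.141 without the block). Of Pex3, Scp2, Glrx5 and Iscu, Glrx5 alone was called with the filter and centred arrays (limma adjusted p = 0.0337). Tap1 and Tap2, ABC proteins that load peptides for MHC class I and carry other symbols, differed by -0.03 and 0.13, and the chloride channel gene Cftr was at the floor.

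**Figure D4:**
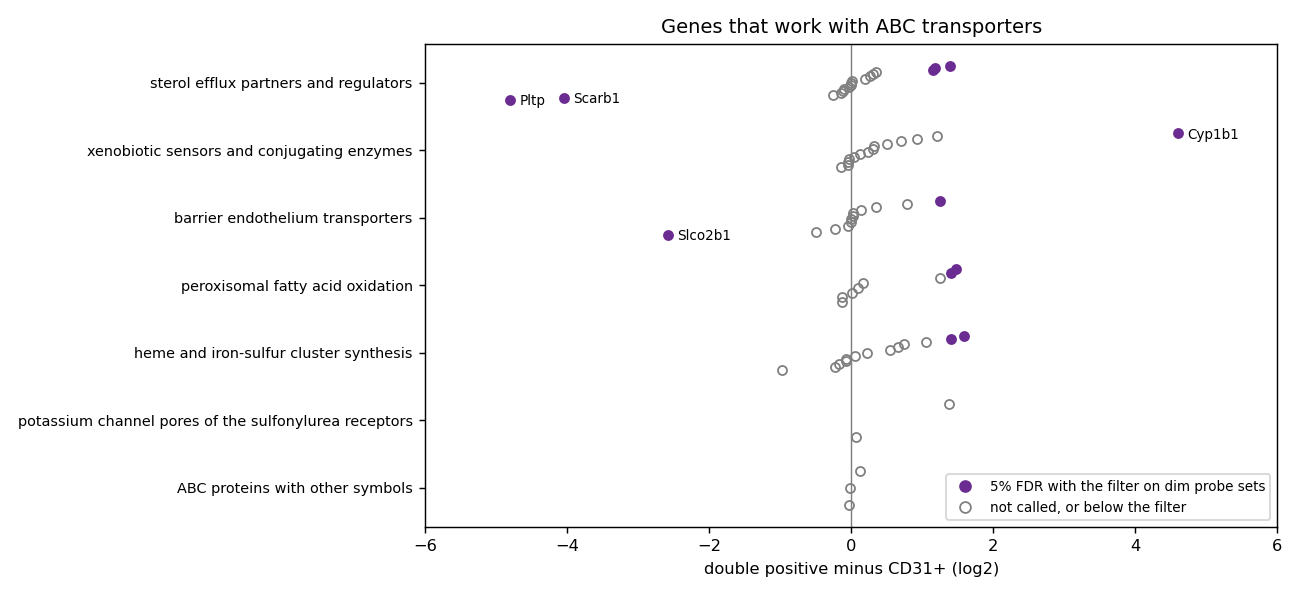
Differences, as double-positive minus CD31+ log2 values, of the genes that work with ABC transporters, grouped by list. Filled points are genes called at 5% FDR once dim probe sets were filtered out, and open points are genes that were not called or lay below that filter. Pltp, Scarb1 and Slco2b1 lie left of 0, at -4.80, -4.05 and -2.58, and Cyp1b1 right of it, at 4.61.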

How the data were processed

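RNA of 3 double-positive and 3 CD31+ samples was measured on 6 mouse GeneChip arrays. The authors normalized the arrays with GCRMA, and the deposited values are log2 RNA abundances, 1 per probe set and array. Versions of GCRMA and of the authors' limma are not given in the sources used here, and raw intensities were not used. The number of arrays limits the precision.

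The limma package 3.58.1 (lmFit and eBayes, R 4.3.3) tested the differences over 45037 probe sets, unfiltered and unblocked, at 5% FDR (Benjamini-Hochberg). The 64 control probe sets were left out. Of several probe sets of a gene the one brightest on average was read. Groups follow the gate word of the labels. The study calls the samples of a group independent and does not give the mice behind each, so p-values measure the spread between these samples. Same-numbered arrays deviated together from their group means (correlations of 0.341, 0.475 and 0.418 over 5764 bright probe sets, against -0.405 to 0.057 for other numbers) and the design text calls the samples paired, so blocked fits, with the replicate number as the block, are given beside the results whose call they change. Deviations from a group mean cancel within the group, so positive values for the same number force lower ones for other numbers. That contrast is thus partly built in.

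Members were named when past 5% FDR with or without the filter (at least 3 arrays with a log2 value of 5 or more), at an unadjusted p under 0.05 with a difference of at least 1, bright on all 6 arrays (log2 of at least 8) or brightest of their role group, together with Abcb1a and Abcb1b, and partner genes when past 5% FDR with or without the filter. Gstp1, Hsd17b4, Kcnj8, Kcnj11, Tap1, Tap2, Urod and Cftr were named outside this rule. Members, lists and tests were chosen with earlier results of these data known. Some genes of the family and of the other lists are not reported here. Promoters and neighbours came from RefSeq tables (GRCm38.p6).

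Alternatives were the block, the filter, the filter with the block, centred arrays (each array minus its median over those bright probe sets, whose mean reached 5), the filter with centred arrays, eBayes with trend and robust, array weights, probe sets averaged per gene, 1% FDR and each array left out. Leaving out both arrays numbered 2 was added after seeing the data. Plots were made in Python 3.11.15 with matplotlib 3.10.9.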

Additional observations from a re-analysis of the deposited data

How the results depend on the processing

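The calls of members at 5% FDR depended on the setting. There was 1 higher (Abca13) and 1 lower (Abcb1a). With the replicate block over all probe sets, at 1% FDR, and without both arrays numbered 2 there were 0 higher and 0 lower. Leaving out any 1 array ended the call of Abcb1a, and leaving out any but CD31+ replicate 2 ended that of Abca13, so that 0 to 1 were higher and 0 were lower. With the filter, with and without the block, there were 4 higher and 2 lower, with the filter and centred arrays 1 and 2, and with probe sets averaged per gene 1 and 2, the added one being Abcc4. Trend and robust estimates and array weights kept both calls and added none. With centred arrays over all probe sets there were 4 higher and 35 lower and the median difference of the members was -0.68, since centring moves genes at the floor by construction. Over the named genes 171 values kept their direction and their side of the threshold, 18 passed it, 15 no longer did and 12 turned. Centred arrays turned Abca3 to -0.10, Abca5 to -0.34, Abcb10 to -0.57 and Abcf1 to -0.57, and the filter with centred arrays gave the same -0.10 for Abca3 and -0.57 for Abcf1. Abca5 was also -0.20 with array weights and -0.12 without both arrays numbered 2, and -1.01 to 1.23 with 1 array left out. Abcf1 was -0.079 with probe sets averaged per gene. Centring lowers every difference by 0.68 by construction, which turned Abca3, Abca5, Abcb10 and Abcf1 in the centred fits. The cause of the other changes was not tested. Groups of 3 arrays and a floor under many members limit what can be seen.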
